A study of Mus musculus with 4 samples.

Results

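The genes of the interleukins and of their receptors were examined for RBPJ occupancy in alveolar macrophages (AMs), which live in the airspaces of the lung and clear surfactant and particles. Members were all autosomal protein-coding mouse genes whose symbol starts with Il and a digit, which gave 77 of 20807 autosomal protein-coding genes. By the known role of their products, 39 were ligands (antagonists included), 35 were receptor chains (a decoy receptor included), and 3 were neither, namely the soluble binding proteins Il18bp and Il22ra2 and the amino acid oxidase Il4i1. Another 5 X-linked genes with such symbols were left out by the rule. The study profiled RBPJ by HT-ChIPmentation, which is chromatin immunoprecipitation with tagmentation on the beads, in WT AMs. The cells were obtained by bronchoalveolar lavage and sorting from C57BL/6J mice that were 9 weeks old according to the methods of the study. The series held 4 samples, 2 RBPJ libraries made with an anti-RBPJ antibody (replicates 1 and 2) and 2 input libraries, which entered only through the peak calling. All mice were WT and untreated as far as the labels say, and the labels do not tell whether the libraries came from separate or pooled animals.

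Interleukins are secreted proteins through which leukocytes, epithelium and stroma signal to each other. Most act through receptors of paired chains, a private chain that binds the ligand and a shared chain such as gp130 or the common gamma chain, which pass the signal to Janus kinases and STAT factors, whereas IL-1 family receptors signal through the adaptor MyD88. RBPJ binds DNA at a TGGGAA core, holds genes silent together with corepressors and turns into an activator when the cleaved intracellular part of a Notch receptor joins it.

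The data consisted of 106228 peaks in replicate 1 and 47224 in replicate 2. A consensus region is a stretch of overlapping peaks with at least 1 peak of each library, and 25208 of the 25454 consensus regions were autosomal. For each region the fold enrichment over background that the peak caller gave is printed for replicate 1 and replicate 2 in this order. The lists were called separately and the read depth behind them is not used here, so the size of a gap between the libraries is not interpreted. Where regions are ranked over both libraries, the rank is by the lower of the 2 folds. With a single condition and 2 libraries, no contrast between groups could be tested, and gene groups are described by counts, with the share over all autosomal protein-coding genes for the main ones. Of the AM markers, 9 of 10 had a consensus region within 1 kb of a transcription start site (TSS), as did 34.7% of all autosomal protein-coding genes, Marco being the exception, with 6 regions elsewhere. Among markers of other cells, such a region was found at 0 of 6 T and B cell genes, 1 of 4 neutrophil genes (S100a8), 0 of 4 mast cell and basophil genes, 0 of 3 type II cell genes and 0 of 2 innate lymphoid genes. Of these genes without a promoter region, Ms4a1 had 2 regions elsewhere, and Cd3d and Gata3 had 1 each.

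Sequences from 6 of the regions are given first, because these loci carry the strongest or the most numerous peaks of the gene group and show both regions with the RBPJ core and regions without it. Each is 121 bases of GRCm38 centered on the summit and written along the gene's strand, with the distance of the summit from the nearest TSS of the gene (negative upstream). Capitals mark TGGGAA or its reverse complement TTCCCA.
Il1f10, +20704 bp, chr2:24311840-24311960, plus strand: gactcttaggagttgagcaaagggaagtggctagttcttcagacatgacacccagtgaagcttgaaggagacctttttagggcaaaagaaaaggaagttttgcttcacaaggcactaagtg
Il6ra, +1738 bp, chr3:89911364-89911484, minus strand: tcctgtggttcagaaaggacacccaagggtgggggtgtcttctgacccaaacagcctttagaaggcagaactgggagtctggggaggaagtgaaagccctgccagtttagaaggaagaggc
Il6ra, +7461 bp, chr3:89905641-89905761, minus strand: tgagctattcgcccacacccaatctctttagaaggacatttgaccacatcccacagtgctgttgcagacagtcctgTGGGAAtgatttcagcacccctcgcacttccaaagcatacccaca
Il1a, −10082 bp, chr2:129319994-129320114, minus strand: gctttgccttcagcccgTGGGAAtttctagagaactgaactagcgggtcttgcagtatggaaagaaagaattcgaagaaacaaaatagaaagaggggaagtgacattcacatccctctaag
Il17ra, −9887 bp, chr6:120453300-120453420, plus strand: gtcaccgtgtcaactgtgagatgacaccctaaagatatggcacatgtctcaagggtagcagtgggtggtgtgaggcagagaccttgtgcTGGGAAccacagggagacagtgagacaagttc
Il17ra, −8335 bp, chr6:120454852-120454972, plus strand: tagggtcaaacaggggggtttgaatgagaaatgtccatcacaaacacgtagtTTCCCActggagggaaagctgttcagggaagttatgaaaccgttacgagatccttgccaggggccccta
The Il1f10 and the first Il6ra window hold the ligand and the receptor region that are highest in replicate 2 and by the lower fold, and no core lay within 60 bases of their summits. The other Il6ra window, the Il1a window and the window at −8335 bp of Il17ra hold the core preceded by G on its own strand, the longer form of the motif. The Il17ra pair comes from neighboring regions upstream of that gene, and the core began at +29 and −8 bases from the summit, counted along the gene.

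A consensus region lay within 1 kb of a TSS at 20 of the 77 members, or 26.0% (95% Wilson interval 17.5 to 36.7). The background over all autosomal protein-coding genes was 34.7%. They were 9 of the 39 ligands (23.1%, 12.6 to 38.3), 10 of the 35 receptors (28.6%, 16.3 to 45.1) and Il4i1. The intervals of ligands and receptors overlapped for the most part, and both contained the background share. Replicate 1 had a promoter peak at 27 members (35.1%, 25.3 to 46.2), beside a background of 47.2% of genes. They included 12 ligands (30.8%, 18.6 to 46.4) and 14 receptors (40%, 25.6 to 56.4). Replicate 2 had a promoter peak at 20 members (26.0%, 17.5 to 36.7), beside a background of 38.6%. Of these, 9 were ligands (23.1%, 12.6 to 38.3) and 10 receptors (28.6%, 16.3 to 45.1). In each single list the background lay above the intervals of all members and of ligands, and within that of receptors. These differences were not tested. The 20 members of replicate 2 were all among the 27 of replicate 1.

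**Figure D1:**
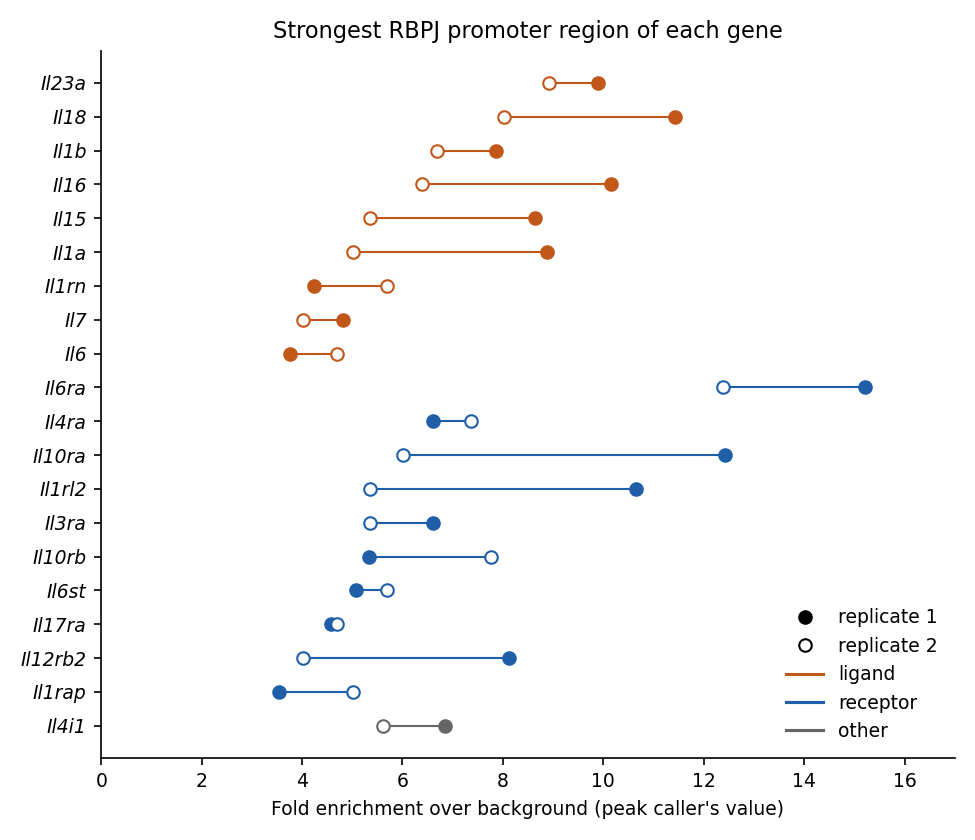
Fold enrichment over background (x axis, the peak caller's value) of the strongest consensus region overlapping 1 kb either side of a TSS, for the 20 interleukin and receptor genes that had such a region. Filled points are replicate 1 and open points replicate 2, joined by a line. The Il6ra region stands highest in both libraries, at 15.22 and 12.38, and replicate 1 gave the higher value at 13 of the 20 genes. A region counts whole, and the Il6ra summit lay beyond the window. Among replicate 2 peaks that themselves overlapped the window, Il23a (8.91) was above Il6ra (8.70).

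Promoter regions of the ligands were found at the IL-1 family genes Il1a, Il1b, Il18 and Il1rn, at Il6, Il7, Il15, Il16 and Il23a. Il23a, the p19 chain of the cytokine IL-23, had the highest of these in replicate 2 and by the lower fold, with 9.89 and 8.91 and a summit at −446 bp. Il18, a cytokine stored as a precursor and cut by caspase-1, had a wide intronic region at +2409 bp of an internal TSS whose edge lay within 1 kb of that TSS (11.42 and 8.03), and a further region at −44 bp (7.10 and 4.02). The latter lay within 1 kb of the TSS of Bco2 as well, so it cannot be given to either gene alone. The highest replicate 2 peak of Il18 that itself overlapped a promoter window had a fold of 5.36. Il1b, which encodes the main secreted form of IL-1, had its promoter region at −25 bp with folds of 7.87 and 6.69, and Il1a, the form that is released from damaged cells, had its region at +574 bp with 8.87 and 5.02. Thus both IL-1 agonists had a promoter peak in each library, and both were higher in replicate 1.

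Il16, a chemoattractant for CD4+ cells, had folds of 10.15 and 6.39 at +1739 bp, and Il15, which sustains NK and memory T cells, had 8.63 and 5.36 at +1154 bp. In both genes the region overlapped the promoter window while its summit lay beyond it. The IL-1 receptor antagonist Il1rn had 4.23 and 5.69 at −2 bp of an internal TSS. Il7, the lymphocyte survival factor, had 4.82 and 4.02 at +52 bp, and Il6, a ligand of the gp130 system, had 3.77 and 4.69 at −166 bp. With the strongest promoter region of each ligand ranked by the lower fold, Il7 and Il6 were the weakest. Il6 and Il1rn were the 2 ligands whose strongest consensus promoter region was higher in replicate 2. Il6 had a stronger promoter peak in replicate 1 (6.60), outside its consensus region.

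Among receptors, Il6ra, the private chain that binds IL-6, stood out in both libraries. Its region at +1738 bp, inside an intron, had folds of 15.22 and 12.38, above 99.0% of all autosomal consensus regions by the lower of the 2 folds, and a separate region at −62 bp had 8.63 and 8.70. The intronic region overlapped the promoter window with its summit beyond it. Its replicate 2 peak of 12.38 did not itself overlap the window, where the highest replicate 2 peak of Il6ra had 8.70. Il4ra, the receptor chain for IL-4 and IL-13, had 4 consensus regions in its promoter window, more than any other member, and the strongest of them had 6.60 and 7.36 at +153 bp. The ligand-binding chain of the IL-10 receptor, Il10ra, had 12.43 and 6.02 at +1051 bp, and its partner Il10rb had 5.33 and 7.77 at −574 bp. Il1rl2, the receptor for IL-36, had 10.66 and 5.36 at −230 bp, and Il12rb2, a chain of the IL-12 receptor, had 8.12 and 4.02 at −241 bp. Il10ra and Il1rl2 were, after Il6ra, the highest promoter regions of the receptors in replicate 1.

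Il3ra, the private chain of the IL-3 receptor, had 6.60 and 5.36 at −96 bp. The shared chain gp130, encoded by Il6st, had 5.07 and 5.69 at −1036 bp of an internal TSS and 7.36 and 4.69 at +536 bp of another. Il17ra, the chain common to IL-17 receptors, had 4.57 and 4.69 at +821 bp, and Il1rap, the accessory chain of IL-1 family receptors, had 3.55 and 5.02 at +63 bp. Il1rap had the lowest replicate 1 fold among the 20 genes with a consensus promoter region. Il4i1, which oxidizes phenylalanine, had 6.85 and 5.62 at −551 bp in a region that also lay within 1 kb of the TSSs of Atf5 and Nup62 and was nearest to Atf5.

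Over the 20 genes, the strongest promoter region ranged from 3.55 to 15.22 in replicate 1 (median 7.36) and from 4.02 to 12.38 in replicate 2 (median 5.66). In 10 of the 20 genes the strongest assigned region of the gene lay outside the promoter window. The number of promoter members depended on how a region was required to repeat. With summits of the 2 libraries within 100 bp, 14 of the 20 remained (Il1a, Il12rb2, Il15, Il16, Il17ra and Il4i1 were lost), while the share of all genes fell from 34.7% to 23.4%. With a −log10 q of at least 5 in both lists 15 remained (Il1rap, Il6, Il7, Il12rb2 and Il17ra were lost), while the share of all genes fell to 24.9%.

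A promoter peak in replicate 1 but not in replicate 2 was found at 7 members. These were the decoy receptor Il1r2 (fold 3.60), the IL-18 receptor chain Il18rap (5.33), the IL-11 receptor Il11ra1 (3.30), the receptor chain Il20rb (4.15), and the ligands Il27 (4.06), Il17c (3.60) and Il17d (4.06). All 7 lay below the median promoter fold of 7.36 above. Except for Il11ra1, they were within the range of the repeated promoter regions, which began at 3.55 in replicate 1. No member had a promoter peak in replicate 2 alone.

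Regions away from promoters were assigned to a gene when they overlapped its body or had it as the nearest protein-coding TSS. Ligands and receptors differed more here than at promoters. The body held a consensus region in 9 of 39 ligands (23.1%) and 16 of 35 receptors (45.7%, 30.5 to 61.8), beside 38.5% of all genes, which lay just above the ligand interval of 12.6 to 38.3. A region had the gene as its nearest TSS for 13 ligands (33.3%) and 18 receptors (51.4%, 35.6 to 67.0), beside 41.7%. With any of these kinds, 13 of 39 ligands (33.3%, 20.6 to 49.0) and 20 of 35 receptors (57.1%, 40.9 to 72.0) had a region, beside 46.4%, which gave 34 members in all. For any region the intervals of the 2 classes overlapped and each contained the background, and the difference between the classes was not tested.

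**Figure D2:**
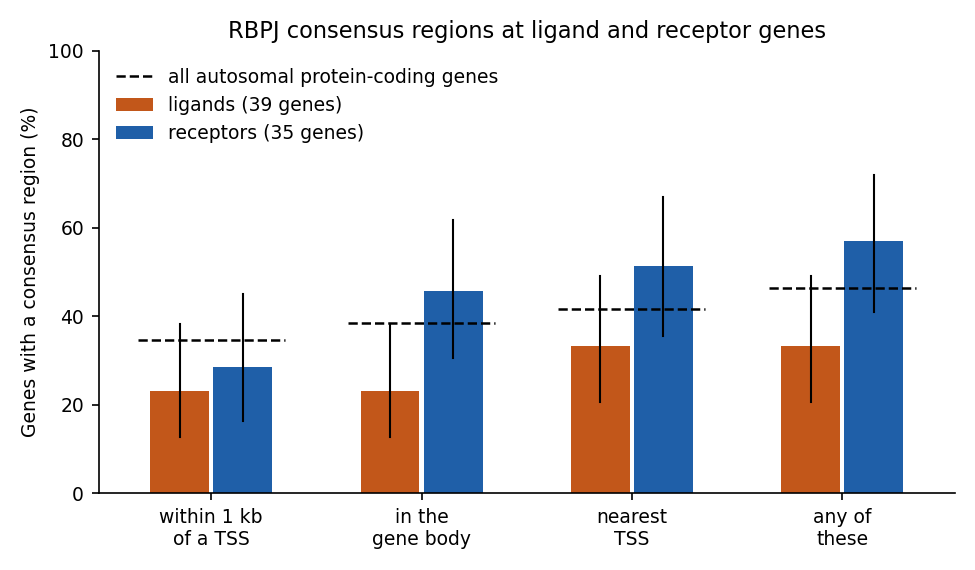
Percent of the 39 ligand and 35 receptor genes (y axis) with a consensus region within 1 kb of a TSS, in the gene body, with the gene as its nearest TSS, or any of these. Vertical lines are 95% Wilson intervals over genes and dashed lines the share of all autosomal protein-coding genes. Receptors lie above ligands in each kind of assignment, with overlapping intervals, from 28.6% against 23.1% at promoters to 57.1% against 33.3% for any region.

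Gene length moved with the class. The median gene length was 7.36 kb for ligands, 30.1 kb for receptors and 17.6 kb for all autosomal protein-coding genes, and 25 of the 39 ligands but 2 of the 35 receptors were under 10 kb. Per 100 kb of gene body, ligands held 3.24 consensus regions and receptors 3.21, beside 1.84 over all genes. These rates pool all regions over the summed length, so single genes weigh on them. Il16 held 5 of the 19 ligand regions and Il17ra 9 of the 44 receptor regions. By genes, 33.8% of members had a region in the body, beside 38.5% of all genes. Among genes of 10 to 30 kb, 4 of 9 ligands and 8 of 15 receptors had a region, beside 50.8% of all genes in this length class. Among genes of 30 kb and over, 3 of 5 ligands and 11 of 18 receptors did, beside 55.8%. In the shortest class 6 of 25 ligands did, beside 33.2%. The part of gene length in the difference between the classes was not tested.

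In all, 119 consensus regions were assigned to members, 48 to ligands, 70 to receptors and 1 to Il4i1. A region in an intron of Il17re, upstream of the neighboring Il17rc and nearest to its TSS, counted for both. The member regions had a median fold of 6.09 in replicate 1 and 4.86 in replicate 2, beside 6.34 and 5.02 over all autosomal consensus regions. Replicate 1 gave the higher value in 84 of the 119 (70.6%), close to the 72.2% of all regions. The summit lay more than 1 kb from any TSS and outside genes in 54.2% of ligand regions and 32.9% of receptor regions, beside 29.1% of all. The Il1a and Il1b locus made up 24 of the 48 ligand regions, and without it 6 of the other 24 (25%) lay outside in this sense.

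**Figure D3:**
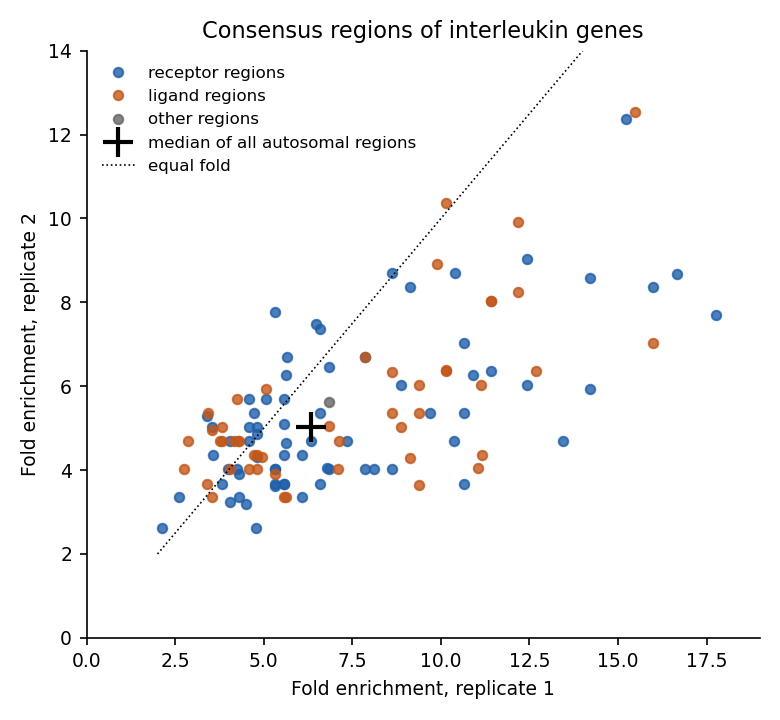
Fold enrichment in replicate 1 (x axis) and replicate 2 (y axis) of the 119 consensus regions assigned to interleukin and receptor genes, colored by class. The cross is the median of all autosomal consensus regions (6.34 and 5.02) and the dotted line marks equal fold. The points at the upper right are the Il1f10 region (15.48 and 12.55) and the Il6ra region (15.22 and 12.38), and 84 points lie on the replicate 1 side of the line.

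The neighboring genes Il1a and Il1b had the most regions of all ligands, with 12 assigned regions each, a number reached by 1.61% of autosomal protein-coding genes and by 3 members. The 71.53 kb that hold both genes had 13 regions, or 18.2 per 100 kb, beside an autosomal mean of 1.02 per 100 kb. Of all 70 kb stretches tiling the autosomes, 0.318% held 13 or more summits. The locus was occupied in each library, with 55 peaks in replicate 1 and 20 in replicate 2. Upstream of Il1a, regions at −4285 bp (10.13 and 10.38), at −10082 bp (11.42 and 8.03, printed above) and at −6011 bp (10.13 and 6.36) were the strongest by the lower fold, a region at −28533 bp had 11.04 and 4.05, and in the gene a region at +3640 bp had 9.39 and 5.36. Upstream of Il1b, regions lay at −2298 bp (15.98 and 7.03) and −9826 bp (12.18 and 8.25), and a region downstream of the gene at +10290 bp had 11.13 and 6.02. The regions of the locus lowest in replicate 1, at −24007 bp and −8902 bp of Il1a, had 2.75 and 4.02 and 2.86 and 4.69, respectively, while 3 regions upstream of Il1b were lowest in replicate 2, at 3.35.

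In the cluster of the other IL-1 family ligands on the same chromosome, the occupied genes lay at the end that holds Il1rn. The strongest region of any member, at chr2:24311141-24312506, had folds of 15.48 and 12.55 and exceeded 99.2% of all autosomal consensus regions by the lower fold. Il1f10, the gene of IL-38, was its nearest TSS at +20704 bp, and the region lay between Il1f10 and Il1rn. Il1rn had a region of its own at −19924 bp (7.12 and 4.69) and 5 in all. The IL-36 genes Il1f6, Il1f8 and Il1f9 and the antagonist Il1f5 had no consensus region. Il33, the epithelial alarmin of the family, had 3 peaks of replicate 1 in its body and 0 of replicate 2. Among IL-1 family receptors, Il1rap had its strongest region deep in the gene at +108145 bp (14.21 and 8.58), Il1r1, the signaling receptor for IL-1, had regions at +28325 bp (10.91 and 6.27) and +15632 bp (10.66 and 3.68), and the IL-33 receptor Il1rl1 had 1 region at −24768 bp (6.60 and 3.68). The decoy Il1r2 and the IL-18 receptor genes Il18r1 and Il18rap had no consensus region.

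**Figure D4:**
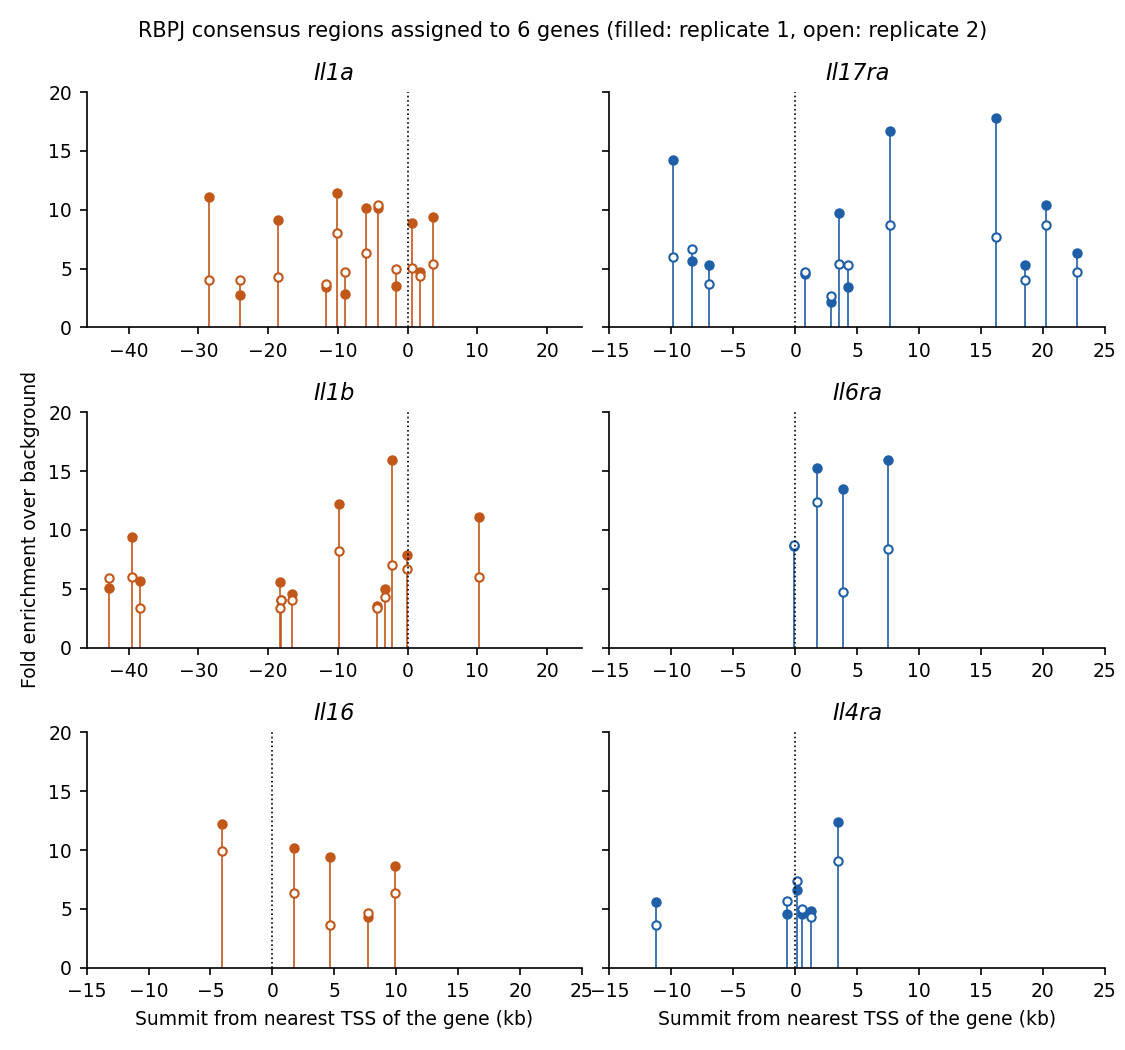
Consensus regions assigned to 6 genes, placed by the distance of the summit from the nearest TSS of the gene (x axis, kb, negative upstream) and drawn as high as their fold enrichment (y axis). Filled points are replicate 1, open points replicate 2, orange is for ligands, blue for receptors and the dotted line is the TSS. Il1a, Il1b and Il17ra have 12 regions each, spread to both sides of the TSS, while the 4 regions of Il6ra reach 15.98 in replicate 1 within 8 kb of it.

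The receptor with the most regions was Il17ra, with 12. An intronic region of 5055 bp around +7638 bp had 16.67 and 8.68, and a region at +16191 bp had 17.76 and 7.70, the highest value of any member in replicate 1. By the lower fold the strongest region of Il17ra was at +20226 bp (10.40 and 8.70). Upstream regions at −9887 bp (14.21 and 5.94) and −8335 bp (5.66 and 6.69) are those printed above. In the body, 4 of the regions were nearer to the TSS of the neighboring gene Tmem121b than to that of Il17ra. Those at +16191 and +20226 bp were among them. By contrast Il17rb and Il17rd, further IL-17 receptor chains, had no consensus region, and Il17rc and Il17re had 2 and 1. The Il17rc region at +11754 bp (6.85 and 6.47) lay at the TSS of Creld1. Of the ligands of these receptors, Il17c had 2 regions, at −14277 bp (6.85 and 5.06) and −3510 bp (5.33 and 3.90), and Il17d had 1, at +1265 bp (3.81 and 5.02). Il17a, Il17f, Il17b and Il25 had none, and the 59.71 kb that hold Il17a and Il17f had 0 peaks in either list.

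In the gp130 group, Il6st had 7 regions and Il6ra 4. The Il6st region at −24164 bp was the strongest of that gene, with 10.66 and 7.03. Besides those near the TSS, Il6ra had intronic regions at +7461 bp (15.98 and 8.37, printed above) and +3827 bp (13.45 and 4.69), so that all 4 of its regions exceeded 8 in replicate 1. Il6 itself had 2 distal regions, at −64815 bp (12.69 and 6.36) and −62578 bp (3.43 and 5.36), for which it was the nearest TSS. Il31ra, a chain of the IL-31 receptor, had an intronic region at +2427 bp of 208 bp with 6.48 and 7.48. Its −log10 q of 56.44 and 70.67 was far above that of other members with like fold, such as 12.71 and 6.11 for the Il3ra promoter at 6.60 and 5.36, and whether the sequence there is repeated was not examined. No consensus region had Il11ra1 as its nearest TSS. Il11ra1 and Il11ra2 are near-identical copies between which reads may not be placed uniquely, so the absence of a promoter region at either is uncertain. Il11, Il31 and Il27ra had none.

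Among the receptors of the common gamma chain and of IL-4 and IL-13, Il4ra had 6 regions, with the strongest at +3466 bp (12.43 and 9.04). Il15ra, which presents IL-15 to neighboring cells, had 3, the strongest 33895 bp downstream of its nearest TSS (7.87 and 6.69). Il21r had 2, at −6760 bp (8.63 and 4.02) and −9467 bp (5.58 and 4.35), both between Il4ra and Il21r. Il2ra, Il2rb, Il7r and Il9r, receptors best known from lymphocytes and mast cells, had none. The T cell cytokines Il2, Il4, Il9 and Il13 had no consensus region, and Il21 had 1 at +28417 bp (4.28 and 4.69). Il15 had a further intronic region at +18204 bp (11.16 and 4.35). In the common beta chain group Il3ra had 4 regions, between 4.06 and 6.60 in replicate 1, while Il5ra, Il3 and Il5 had none. The 122.1 kb that hold Il4, Il13 and Il5 contained 0 peaks in both lists.

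In the IL-10 family, none of the 5 ligands, Il10, Il19, Il20, Il22 and Il24, had an assigned consensus region. Of its 5 receptors 4 had one, beside 46.4% of all autosomal protein-coding genes. At promoters the counts were 0 ligands and 2 receptors. The difference was not tested, and 4 of the ligands lie in the same cluster. The 142.9 kb that hold Il24, Il20, Il19 and Il10 had 0 peaks in either list, beside autosomal means of 4.27 peaks per 100 kb in replicate 1 and 1.90 in replicate 2. Of all 150 kb stretches tiling the autosomes, 33.9% held no peak summit of either list, so an empty stretch of this length is common. The closest consensus region to Il10 was 64435 bp away. On the receptor side, Il10rb had 4 regions, the strongest at −7003 bp (9.13 and 8.37), and Il10ra had 5, between −6259 and +16601 bp. The receptor chains shared by IL-19, IL-20 and IL-24, Il20ra and Il20rb, had 2 and 3, with the strongest at −20540 bp (11.42 and 6.36) and −2548 bp (5.63 and 6.27). None of the consensus regions of Il20ra and Il20rb lay in a promoter window or in the gene body. Il22ra1, the receptor of epithelial cells for IL-22, had none.

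In the IL-12 family, Il23a and Il12rb2 were the only members with a region. The ligand chains Il12a, Il12b and Il27 and the receptor chains Il12rb1 and Il23r had none. The closest consensus region to Il12b, the chain that IL-12 shares with IL-23, lay 70461 bp away. Il16, outside these families, had 5 regions, the strongest at −4038 bp of an internal TSS (12.18 and 9.91), whereas Il34, a ligand of the CSF1 receptor, had none. In total 43 members had no assigned region, 26 ligands, 15 receptors and the binding proteins Il18bp and Il22ra2. Of these, 23 had no assigned peak in either list.

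The sequence around the summits was scanned on both strands within 100 bp. TGGGAA was found in 24 of the 119 member regions (20.2%), beside 18.8% of all autosomal consensus regions, and its longer form GTGGGAA in 9 (7.56%), beside 4.63%. The 2 forms overlap by construction. The core was therefore about as frequent at interleukin genes as elsewhere, and most member regions lacked it within this window. GGAAGT, a motif of PU.1 and other ETS factors, was found in 51 (42.9%), beside 30.2%, with 45.8% of ligand and 40.0% of receptor regions. Beyond 1 kb of a TSS its share was 45.3% of 95 member regions, beside 31.3% of 17455. The median GC content of the windows was 46.8% over all 119 member regions and 46.8% over all autosomal consensus regions. It is not given separately for the regions beyond 1 kb. TTGCNNAA (CEBP) was found in 16.0%, beside 14.3%, in 22.9% of ligand and 11.4% of receptor regions. TGANTCA (AP-1) was found in 9.24%, beside 9.32%, TTCNNNGAA (STAT) in 8.40%, beside 7.37%, and the NF-κB consensus in 7 regions (5.88%), beside 2.61%. Neighboring regions of 1 locus enter these shares together, and a match is a description of the letters only.

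Genes that act with the members but carry no Il symbol were counted in the same way. Receptor chains and ligands of this kind had a promoter region in 5 of 14. These were the GM-CSF receptor chains Csf2ra and Csf2rb, the further receptor chain Csf2rb2, the TSLP receptor Crlf2 and the gp130 ligand Osm. Crlf2 was the strongest of them in replicate 1, with 15.73 and 10.71, and Csf2ra in replicate 2 and by the lower fold, with 11.92 and 11.72. Kinases, STATs and adaptors downstream of the receptors had such a region in 15 of 19 (78.9%), inhibitors of the pathway in 5 of 7 and genes of cytokine processing in 3 of 5, beside 34.7% of all autosomal protein-coding genes. The adaptor of IL-1 family receptors, Myd88, had 12.94 and 7.70, Stat3, which carries signals of gp130 and the IL-10 receptor, had 12.94 and 6.69, and Stat6, which carries those of Il4ra, had 13.19 and 6.16. Nlrp3, the sensor of the inflammasome that activates caspase-1, had 22.07 and 15.40, above every promoter region of a member in both libraries. Jak3, Stat4, Irak3 and Traf3ip2 had no promoter region. These 45 genes were chosen by hand as known parts of the pathway, so their share of 62.2% describes this list only, and it was not tested against the 26.0% of the members.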

How the data were processed

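RBPJ HT-ChIPmentation libraries (replicates 1 and 2) of sorted WT AMs each had a peak list, and the inputs entered only through peak calling. According to the submitters' processing notes and the study's methods, reads were processed with bcl2fastq (version 2.20.0.422), CASAVA and Cutadapt, aligned to mm10 with Bowtie2 and filtered with SAMtools, and the authors called peaks per library with MACS3 at a q of 0.05. The deposited fold enrichment is the authors' ratio of the summit over background. The deposited −log10 p and −log10 q are the peak caller's, and the deposited score was not used. Each list was called by itself and the lists differ in length, so the consensus is limited by the shorter list.

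Gene models were the basic transcripts of GENCODE M21 on GRCm38, and coordinates count from 1. Peaks overlapping by at least 1 bp were merged. The fold of a region is its highest peak in each library, and its summit that of the library with the higher fold. A promoter region overlapped 1 kb either side of a TSS. Shares carry 95% Wilson intervals over genes, which cover counting error only, and no p-value was computed. Members, classes, families, pathway lists and motifs were chosen with earlier results of these data known. Named with values were all members with a promoter region or a promoter peak of a single library and, in each class, the 4 with the most and the 4 with the strongest regions. The other members with a region, and their values, were added after these had been seen. Assignment was tested on simulated peaks. The software was Python 3.11.15 with pysam 0.24.0, pandas 2.3.3, numpy 2.4.6 and matplotlib 3.10.9. Alternatives covered the libraries, the q and summit criteria, the promoter window, the transcripts, the antagonists and the motif window. No list of problematic genome regions was applied.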

Additional observations from a re-analysis of the deposited data

How the results depend on the processing

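Of the alternatives to each count, 54 gave a count within 1.5 times the reported value, or a share within its interval, and 6 did not. The 119 regions became 56 with a −log10 q of at least 5 in both lists and 75 with summits within 100 bp, and ranged from 208 to 496 when a single library was used. Ligands with any region ranged from 15 to 21 with a single library (reported 13), the higher value being that of replicate 1 alone, where 64.3% of all genes had a region. Fewer requirements on repetition give more regions by construction. The share of regions with TGGGAA fell from 20.2% to 10.1% within 50 bp of the summit, beside 10% of all regions in that shorter window. Requiring the summit itself within 1 kb of a TSS, an alternative chosen after seeing the data, left 17 promoter members without Il10ra, Il15 and Il16, beside 33.0% of all genes. In each alternative run for promoters, receptors with a region outnumbered or equaled ligands with a region. These alternatives draw on the same 2 lists, so their agreement is in part built in. The counts were equal with a −log10 q of at least 5 (7 each) and a 500 bp window (9 each), beside 24.9% and 32.7% of all genes. No paired analysis was possible because the inputs that share replicate numbers with the RBPJ libraries had no peak list here. With 2 libraries, the spread between replicates is known only as the difference of a pair of values.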
